A study of Mus musculus with 194 samples.

Results

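Metallothioneins are small cysteine-rich proteins that bind zinc and copper, and the zinc they hold is exchanged with the pool that transporters fill and empty. The zinc-finger factor Mtf1 senses free zinc, binds metal response elements and switches on metallothionein genes and the exporter Slc30a1. Zinc enters cells through importers of the ZIP family and leaves the cytosol through exporters of the ZnT family.

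The genes described here are Mt1 and Mt2, the 2 broadly expressed metallothioneins, Mtf1, Slc30a1 (ZnT1, the plasma membrane zinc exporter) and Slc39a10 (ZIP10, a zinc importer), that is 5 of 23420 rows of the expression table. They were chosen by name, with the likeness of Mt1 and Mt2 in related cells, their coupling and the lineages that express them already known. Those readouts are therefore given as descriptions without a test, and tests of the 5 genes are given only for time since division. Further tests cover related genes that are not among the 5. The lists of these genes were also chosen with earlier results of these data known, so their counts are no independent evidence.

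Single cells grew and divided in the traps of a microfluidic device, were followed by time-lapse imaging, and were released one at a time for Smart-Seq2 single-cell RNA-seq. The first type was activated primary CD8+ T-cells of strain C57BL/6J, stimulated with plate-bound anti-CD3 and soluble anti-CD28 before loading, then grown with interleukin 2 and 2-mercaptoethanol. The second was L1210, a mouse lymphocytic leukemia line (strain DBA subline 212), grown in the same basal medium and serum without those additions. Each library is 1 cell, apart from labelled doublets. The labels name its sister, its cousins and the hours since its last division where these were recorded, which they were not for every cell. The authors took the CD8+ T-cells from several mice of mixed gender and a range of ages. The labels name no mouse, sex, age or culture for any cell, so each cell type counts as 1 source. Strain, medium and activation cannot be told apart from cell type. Cells of 1 lineage also share their mouse or culture and their run in the device. Likeness among relatives cannot be told apart from these. Relatives were also close in time since division, so their likeness is also given beside unrelated cells within 1 h of that time.

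After removal of doublets and of cells with fewer than 1000 genes above 0 TPM, a transcript level normalised for length and library size, 97 CD8+ T-cells in 34 lineages and 81 L1210 cells in 26 lineages remained. The cells nearest the minimum had 714 and 2639 detected genes in CD8+ T-cells, and 801 and 1610 in L1210 cells. TPM keep no record of sequencing depth, so a value of 0 means only that a gene was listed at 0. The number of detected genes stands in for depth, with a median of 6862 (2639 to 10905) in CD8+ T-cells and 8402 (1610 to 10454) in L1210 cells. T-cell markers matched the labels: the summed level of 5 of them was 395 to 5350 TPM in CD8+ T-cells and at most 38.4 TPM in L1210 cells. The B-lineage marker Cd79a was above 0 in 80 of 81 L1210 cells and in 10 of 97 CD8+ T-cells, and Cd79b in 79 and 47. Cd79a and Cd79b had means of 441 and 346 TPM in L1210 cells, while Ms4a1 was above 0 in 1 of these cells. In CD8+ T-cells Cd79b reached 283 TPM. The myeloid marker Lyz2 was above 0 in 36 of 81 L1210 cells (highest 110 TPM) and in 0 of 97 CD8+ T-cells. The myeloid markers Csf1r and Itgam were above 0 in 1 and 6 L1210 cells and in 2 and 10 CD8+ T-cells.

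Mt2 and Mt1 lie side by side on the forward strand of chromosome 8 (GRCm38), Mt2 at chr8:94172664-94173568 and Mt1 at chr8:94179082-94180327, with 5513 bases between them. Mt3 and Mt4 lie upstream of Mt2. Mtf1 is at chr4:124802104-124849800 (forward), Slc30a1 at chr1:191906767-191913247 (forward) and Slc39a10 at chr1:46807544-46892852 (reverse). The annotated transcripts of Mt1 and Mt2 share 0 stretches of 30 bases, 1272 distinct stretches in Mt1 and 574 in Mt2, so reads of that length without mismatches could be told apart.

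Because Mt1 and Mt2 are neighbours whose levels moved together, the 250 bases before their RefSeq starts (GRCm38.p6) are shown with those of Slc30a1. Capitals mark the core of the metal response element, TGCACNC or TGCGCNC on either strand. The windows are chr8:94178839-94179088 for Mt1, chr8:94172368-94172617 for Mt2 and chr1:191906531-191906780 for Slc30a1, all on the forward strand.
Mt1: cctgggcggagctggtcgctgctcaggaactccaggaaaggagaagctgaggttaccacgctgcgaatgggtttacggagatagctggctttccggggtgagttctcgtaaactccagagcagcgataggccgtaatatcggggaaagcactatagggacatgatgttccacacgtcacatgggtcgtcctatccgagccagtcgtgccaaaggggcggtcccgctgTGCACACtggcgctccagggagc
Mt2: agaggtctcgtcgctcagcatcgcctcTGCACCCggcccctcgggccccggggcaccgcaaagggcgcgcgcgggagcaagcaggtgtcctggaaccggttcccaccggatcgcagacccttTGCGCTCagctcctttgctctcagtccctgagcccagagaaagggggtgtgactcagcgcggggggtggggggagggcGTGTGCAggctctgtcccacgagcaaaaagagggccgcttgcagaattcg
Slc30a1: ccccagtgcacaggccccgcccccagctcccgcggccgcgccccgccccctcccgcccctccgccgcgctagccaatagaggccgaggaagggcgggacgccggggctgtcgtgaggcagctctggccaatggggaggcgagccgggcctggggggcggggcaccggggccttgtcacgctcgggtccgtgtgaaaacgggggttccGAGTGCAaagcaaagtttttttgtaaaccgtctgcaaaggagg
All 5 genes matched a RefSeq promoter entry. Mt2 held 3 cores, Mt1 1 and Slc30a1 1, while the window of Mtf1 and both windows of Slc39a10 held 0. Of 32851 promoter windows of this length, 21.4% held at least 1 core and 1.26% held 3 or more. Mt1 has 3 annotated transcript starts, and the 159 bases between the first and the last held 4 further cores, a count reached in the same length by 0.125% of the promoter windows. A match describes the letters only.

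Mt1 was listed at 0 or low in most CD8+ T-cells and strong in a few lineages, whereas it was high in nearly every L1210 cell. In CD8+ T-cells Mt1 was above 0 in 49 of 97 cells, with a lowest value of 0, a median of 2.46 and a highest of 950.4 TPM. In L1210 cells it was above 0 in 80 of 81, with a median of 1093 and a highest of 2854 TPM. The mean was 80.5 ± 165 TPM (SD over 34 lineage means) in CD8+ T-cells and 1118 ± 298 TPM (SD over 26 lineage means) in L1210 cells. The 2 types overlapped little: 60 of 81 L1210 cells lay above the highest CD8+ T-cell, and 0 of 97 CD8+ T-cells lay above the L1210 median. Ranked by mean TPM over all 23420 rows, Mt1 was number 1324 in CD8+ T-cells.

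Mt2 followed the same pattern at a lower level. Only 24 of 97 CD8+ T-cells had any Mt2 (median 0, highest 221 TPM), whereas 80 of 81 L1210 cells did (median 631, highest 1410.4 TPM). Its lineage means averaged 17.7 ± 42.1 TPM (SD, n = 34) in CD8+ T-cells and 673 ± 195 TPM (SD, n = 26) in L1210 cells. No CD8+ T-cell reached the lowest value of the 80 L1210 cells above 0, 227 TPM. Means over cells were 12.4 times higher in L1210 cells for Mt1 and 34.1 times for Mt2, and Mt2 was number 172 by mean TPM in L1210 cells and number 4179 in CD8+ T-cells. No test was made between the types.

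In L1210 cells the sensor and the transporters had far lower TPM, a scale per length, than the metallothioneins, and in CD8+ T-cells lower means than both. In the 86 CD8+ T-cells outside the lineages of CD8_25, CD8_83 and CD8_91, which had high Mt1, the mean of Mt2 (4.604 TPM) was close to those of Slc39a10 (4.49 TPM) and Mtf1 (4.06 TPM). Mtf1 was above 0 in 56 CD8+ T-cells (median 0.89, highest 29.4 TPM) and in 69 L1210 cells (median 4.31, highest 22.2 TPM). Its lineage means, 3.81 ± 4.19 and 5.13 ± 4.16 TPM (SD, n = 34 and 26), differed by less than their spread. Slc30a1, the exporter that Mtf1 regulates, was above 0 in 16 CD8+ T-cells (highest 11.6 TPM) and in 44 L1210 cells (median 1.47, highest 12.8 TPM). Too few CD8+ T-cells expressed Slc30a1 for the filter on low values, above 1 on the ln(TPM + 1) scale in over 10% of cells, so there it was not tested. Slc39a10 was above 0 in 51 CD8+ T-cells (median 0.34, highest 51.6 TPM) and in 71 L1210 cells (median 13.5, highest 78.4 TPM), with lineage means of 3.86 ± 4.59 and 15.8 ± 8.12 TPM (SD, n = 34 and 26). The other 4 genes passed the filter in CD8+ T-cells, and all 5 passed it in L1210 cells. By mean TPM the order in L1210 cells was Mt1, Mt2, Slc39a10, Mtf1, Slc30a1, and in CD8+ T-cells Slc39a10 (4.49 TPM) and Mtf1 (3.96 TPM) did not differ beyond their spread.

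**Figure D1:**
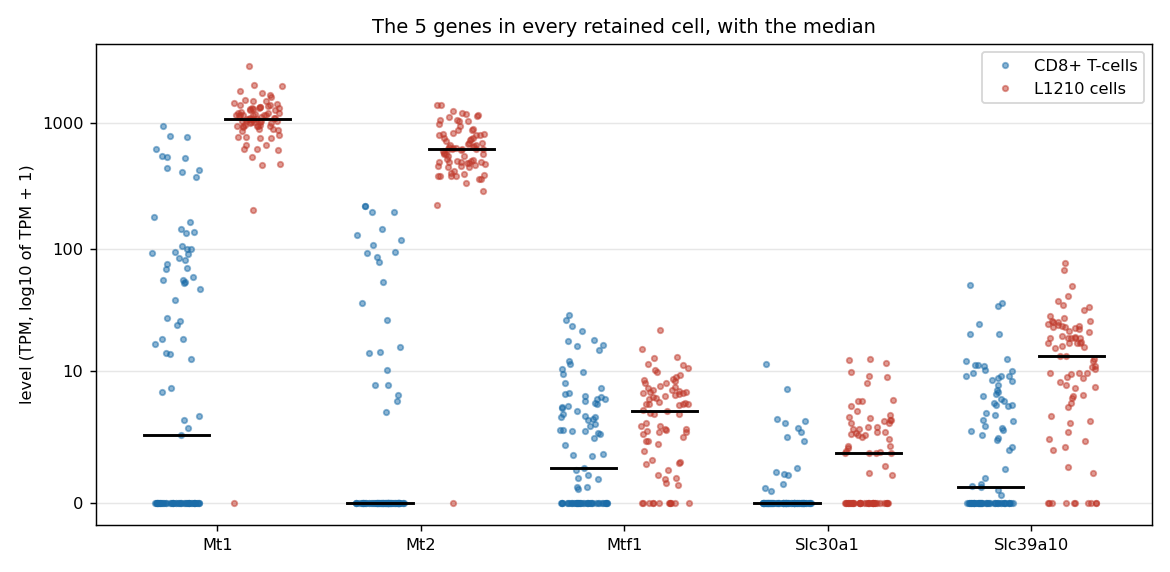
Level of the 5 genes in TPM (axis: log10 of TPM + 1) in each of 97 CD8+ T-cells (blue) and 81 L1210 cells (red); black bars are medians. Mt1 and Mt2 of L1210 cells sit around medians of 1093 and 631 TPM, above nearly all CD8+ T-cells, while the values of Mtf1 overlap.

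Detection of each gene moved with the number of detected genes. In CD8+ T-cells with Mt1 above 0 the median was 7537 detected genes, against 6385.5 in cells listed at 0, and the correlation of ln(TPM + 1) of Mt1 with detected genes was 0.30 over 97 cells. The corresponding values were 0.21 for Mt2, 0.32 for Mtf1, 0.35 for Slc30a1 and 0.40 for Slc39a10. In L1210 cells they were 0.41 for Mt1 and 0.25 for Mt2 over 81 cells, but 0.018 and -0.044 over 79 cells without L1210_8 and L1210_15, which had few detected genes. For Mtf1, Slc30a1 and Slc39a10 they were 0.29, 0.32 and 0.38 over 81 cells and 0.29, 0.28 and 0.26 over 79. The part of detection in the levels was not tested.

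Within CD8+ T-cells the metallothionein signal lay in a few lineages, each grown from 1 founding cell. Of 20 lineages with 3 or more retained cells, Mt1 was above 0 in every cell of 6, in some cells of 11 and in no cell of 3. The highest lineage was that of CD8_83 (named by its lowest cell number), whose 4 cells had 789, 627, 554 and 950.4 TPM of Mt1. The same cells had 200.3, 86.6, 119.8 and 220.1 TPM of Mt2. All 4 were therefore among the strongest CD8+ T-cells for both genes.

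The lineage of CD8_25 had 547, 445, 377 and 146 TPM of Mt1 and 199, 79.1, 129.5 and 147 TPM of Mt2. The 3 retained cells in the lineage of CD8_91 had 138, 425 and 782 TPM of Mt1 and 93.6, 14.2 and 221 TPM of Mt2. The cell CD8_77, without a retained relative, had 409.9 TPM of Mt1 and 109 TPM of Mt2. A middle group followed, with Mt1 between 94.8 and 181 TPM in the 4 cells of CD8_29, between 48.1 and 134 TPM in those of CD8_21, and above 0 and up to 91.8 TPM in those of CD8_38. Mt2 was above 0 in 3, 2 and 1 of these cells, respectively, and reached at most 37.4 TPM.

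Relatives did not always share the state. The 4 cells of the lineage of CD8_99 had 82.2, 0, 2.46 and 529 TPM of Mt1, and only the last had Mt2, at 95.7 TPM. That last cell had 10905 detected genes, the most of any CD8+ T-cell, against 7301, 9063 and 10124 in the others. Every cell of the lineages of CD8_9, CD8_51 and CD8_59 was at 0 for Mt1 and Mt2. The lineages of CD8_25, CD8_83 and CD8_91 together held 11 cells, and these carried 66.1% of the summed Mt1 TPM and 79.2% of the summed Mt2 TPM of all 97 CD8+ T-cells. Their mean times since division were 2.56, 4.75 and 6.87 h. Cd79a was at 0 in all 11 cells, Cd79b was above 0 in 4 with a highest value of 28.4 TPM, and summed T-cell markers were 779 to 2201 TPM. Their detected genes ranged from 3392 to 8951.

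**Figure D2:**
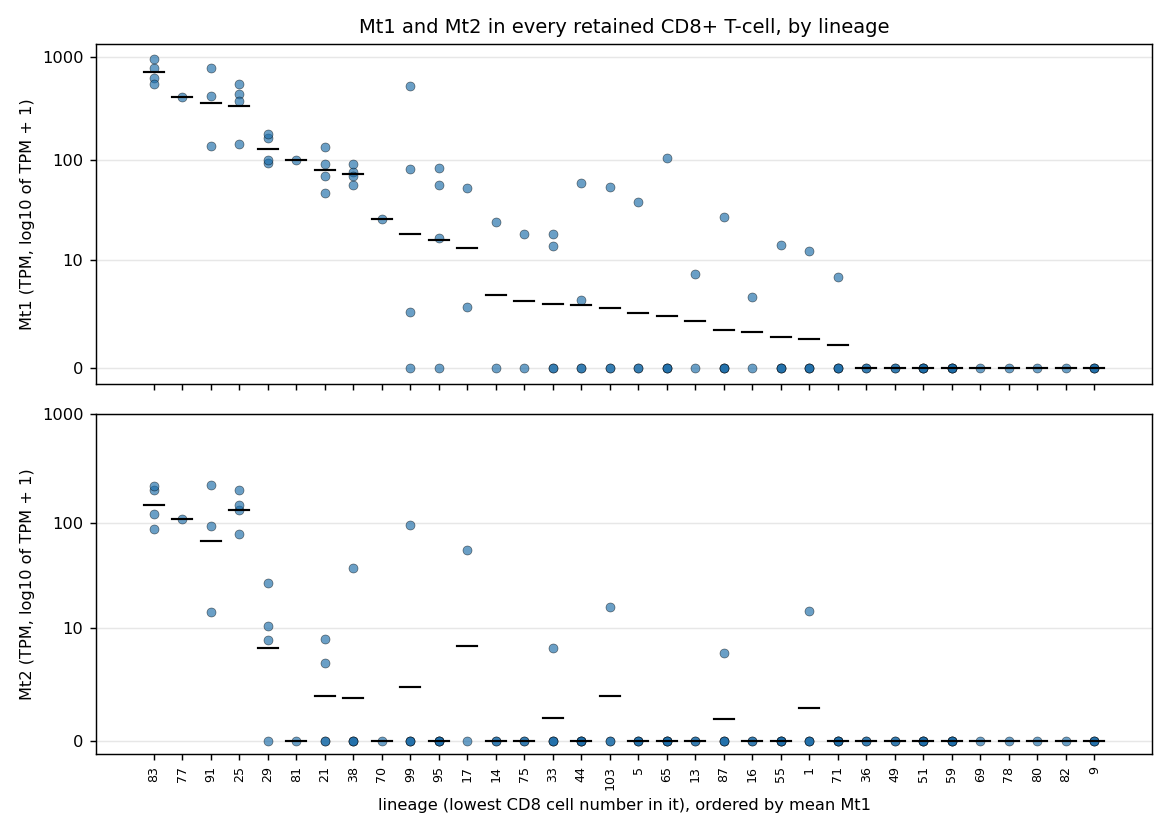
Mt1 (top) and Mt2 (bottom) in TPM (axis: log10 of TPM + 1) in each of 97 CD8+ T-cells, in columns by lineage (34 lineages, ordered by mean Mt1; the number is the lowest cell number in the lineage); black bars are means on the log scale. Cells of lineages 83, 91 and 25 are high in both genes, lineage 99 spans 0 to 529 TPM of Mt1, and the columns at the right are at 0.

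In L1210 cells every lineage expressed both genes, and lineages differed in how far their cells spread. The 4 cells of the lineage of L1210_6 spanned 622 to 777 TPM of Mt1, while the 4 of L1210_25 spanned 1270.4 to 1746 TPM. The 4 cells of L1210_53 spanned 1222 to 2854 TPM. A pair of libraries stood apart. L1210_8 was the only L1210 cell at 0 for Mt1 and Mt2, whereas its sister L1210_84 had 1201 and 1399 TPM. L1210_8 had 2718 detected genes, Cd79b at 0 and 79.3% of its TPM in Rn45s, the 45S ribosomal precursor RNA, against a median of 21.9% over L1210 cells. L1210_15, with 1610 detected genes and 55.5% in Rn45s, had 207 TPM of Mt1 and 1206 TPM of Mt2. The part of library quality in these 2 cells was not tested, and results that rest on them are given with and without them.

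Mt2 was seen almost only in cells that also had Mt1, but many CD8+ T-cells had Mt1 without Mt2. In CD8+ T-cells 23 cells had both, 26 had Mt1 alone, 1 had Mt2 alone and 47 had neither. Cells with Mt1 alone had at most 107 TPM of it (median 32.9), and cells with both had a median of 181 TPM. Of 19 cells with more than 100 TPM of Mt1, 17 also had Mt2, against 6 of the 30 other cells with Mt1 above 0. Pearson's r of ln(TPM + 1) was 0.73 over 97 cells and 0.81 over 34 lineage means. Over the deviations of 90 cells from their lineage mean it was 0.38, and without the lineages of CD8_25, CD8_83 and CD8_91, left out after their values were seen, it was 0.55 over 86 cells. Cells of 1 lineage are not independent, and the points share the depth of each library, so no p is given.

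In L1210 cells r was 0.87 over 81 cells, but this value rests on L1210_8. Over the 80 cells with either gene above 0, which leaves out only L1210_8, it was 0.37. Without L1210_15 as well it was 0.55 over 79 cells, and Spearman's rho over all 81 cells was 0.55. Mt1 was the higher of the pair in 74 of 80 cells that had both. The Mt2 level divided by the Mt1 level had a median of 0.59 in L1210 cells (quartiles 0.47 and 0.71, n = 80) and of 0.23 in CD8+ T-cells (quartiles 0.15 and 0.33, n = 23). The CD8+ quotient leaves out cells with either gene at 0.

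**Figure D3:**
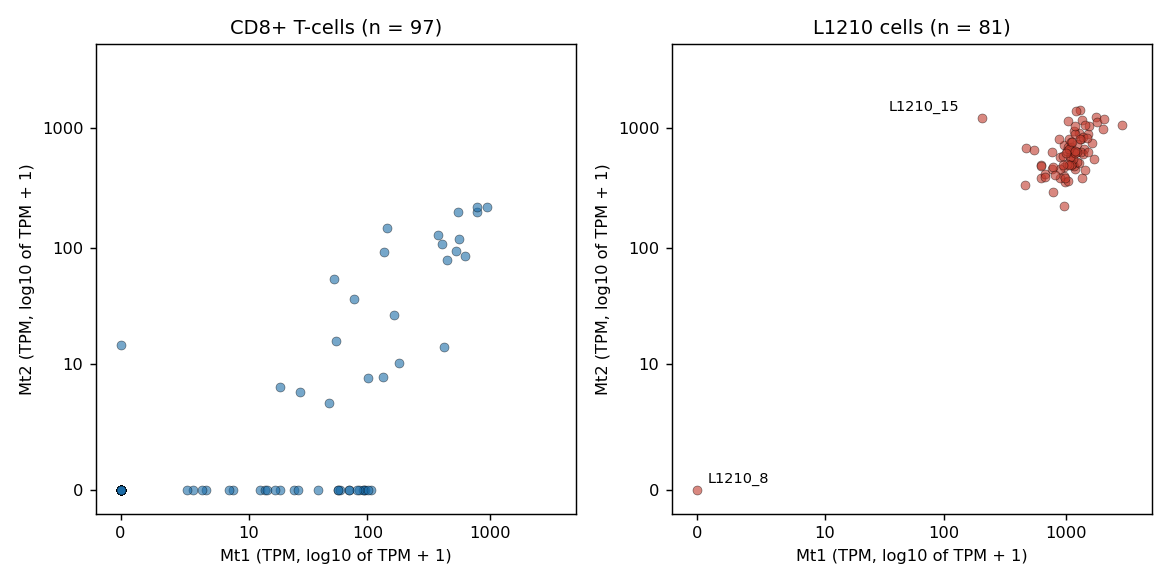
Mt2 against Mt1 in TPM (both axes: log10 of TPM + 1) in 97 CD8+ T-cells (left) and 81 L1210 cells (right), 1 point per cell. CD8+ T-cells with Mt2 nearly all have Mt1 too, and in L1210 cells the labelled libraries L1210_8 and L1210_15 lie apart from the rest.

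The sensor and the transporters showed only weak correlations with the metallothioneins. In CD8+ T-cells r of Mt1 was 0.16 with Mtf1, 0.15 with Slc30a1 and 0.23 with Slc39a10 over 97 cells. In L1210 cells without L1210_8 and L1210_15 the corresponding values were 0.10, -0.11 and -0.04 over 79 cells. Mtf1 and Slc30a1 had an r of 0.04 in CD8+ T-cells and 0.13 in those 79 L1210 cells. In sparse data correlations of this size are not a finding.

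Among all genes that passed the filter, Mt2 was the gene most correlated with Mt1 in CD8+ T-cells and Mt1 the one most correlated with Mt2. The next genes for Mt1 were Tubb6, a beta-tubulin isotype (r = 0.65), Klrk1, which encodes the activating receptor NKG2D (0.61), Gsto1, a glutathione transferase (0.61), Batf3, a basic leucine zipper factor (0.58), and Mif, a cytokine (0.57), over 97 cells. Without the lineages of CD8_25, CD8_83 and CD8_91 these 5 values were 0.44, 0.45, 0.50, 0.43 and 0.51 over 86 cells. For Mt2 they were Batf3 (0.68), Tubb6 (0.67), Klrk1 (0.61), Fosl1, a subunit of AP-1 (0.61), and Lifr, the receptor of leukemia inhibitory factor (0.53). Leaving out those lineages put Mfsd2a (0.57), a lipid transporter, ahead of Mt2 in likeness to Mt1, and Batf3 (0.60) and Mfsd2a (0.59) ahead of Mt1 in likeness to Mt2 (0.55). The values with Mt2 for Batf3 and Lifr were then 0.60 and 0.54 and those for Tubb6, Klrk1 and Fosl1 were 0.37, 0.37 and 0.47.

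In L1210 cells the genes nearest to Mt1 were Rps25, Chchd2, C1qbp, Eno1 and Cox4i1, with r of 0.91, 0.91, 0.90, 0.90 and 0.90 over 81 cells. Without L1210_8 and L1210_15 the same genes had 0.13, 0.06, 0.13, -0.03 and 0.09, so their likeness to Mt1 rested on those 2 libraries. The genes nearest to Mt2, Rps29, Chchd10, Rpl6, Ranbp1 and Cox4i1, went from between 0.85 and 0.89 to between -0.14 and 0.31. Over the 79 remaining cells Mt2 was the gene most correlated with Mt1, and the next was Abhd14a (0.43).

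For Mtf1 the nearest genes in CD8+ T-cells were Raver1-fdx1l (0.52), Adcy3, an adenylyl cyclase (0.52), and Ccny, cyclin Y (0.50). In L1210 cells they were Smarca5, a chromatin remodelling ATPase (0.51), Tcf20 (0.50) and Mcts1 (0.48). For Slc39a10 they were Tulp3 (0.48), Inadl (0.45) and Nup98, a nucleoporin (0.45), in CD8+ T-cells. In L1210 cells Slc39a10 was nearest to Adam15, a membrane protease (0.62), Srebf1, a regulator of lipid synthesis (0.59), and Cand1 (0.59), and these were 0.56, 0.53 and 0.59 without L1210_8 and L1210_15. For Slc30a1 they were Trpt1 (0.52), Nudt22 (0.45) and Zbtb37 (0.45) in CD8+ T-cells, and Zfp87, Zfp119a and Cep68 (0.46, 0.46 and 0.45) in L1210 cells. In CD8+ T-cells Slc30a1 did not pass the filter and was above 0 in 16 cells, Trpt1 in 14 and Inadl in 16. All these values are the highest among the genes that passed the filter, in sparse data whose cells differ in depth. Whether the genes vary together beyond that was not tested. None of these named genes was nearest to the same gene in both types, but only the few genes of highest r are named. The overlap expected by chance among so few was not computed. The lack of overlap therefore does not show that the types differ.

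Sisters and cousins were compared with unrelated cells of the same type. In CD8+ T-cells both sisters had Mt1 in 16 of 43 pairs, 1 sister in 13 and neither in 14. The correlation of Mt1 between the cells of a pair was 0.61 over 43 sister pairs, 0.66 over 72 cousin pairs and -0.03 over 4541 unrelated pairs. For Mt2 these values were 0.63, 0.71 and -0.03. For Mtf1 they were 0.07, 0.08 and -0.01, and for Slc39a10 0.23, 0.00 and -0.01. Pairs share cells, so the values are descriptions.

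The likeness of both genes leaned on few lineages. Without the lineages of CD8_25, CD8_83 and CD8_91, the correlation of Mt2 was -0.00 over 38 sister pairs and 0.06 over 62 cousin pairs, and that of Mt1 was 0.38 and 0.45. With 1 value per lineage, the mean absolute difference in ln(TPM + 1) of Mt1 was 1.45 ± 1.14 among relatives and 2.58 ± 0.64 to unrelated cells (SD, n = 27 lineages), and it was lower among relatives in 20 of 27 lineages. For Mt2 it was 0.71 ± 1.02 and 1.49 ± 0.97, lower in 22 of 27. Without the lineages of CD8_25, CD8_83 and CD8_91 it was lower in 13 of 24 lineages for Mt1 (1.54 ± 1.17 and 2.08 ± 0.49) and in 16 of 24 for Mt2 (0.68 ± 1.06 and 0.75 ± 0.47). A lineage with every cell at 0 has a difference of 0 among relatives and so always counts as lower. Such lineages were 5 of 27 for Mt1 and 15 of 27 for Mt2, and none of them was left out. Most of the Mt2 counts therefore come from lineages listed at 0. To unrelated cells within 1 h in time since division, the mean absolute difference was 2.60 ± 0.81 for Mt1 and 1.55 ± 1.06 for Mt2 (SD, n = 27 lineages). That among relatives was lower in 22 and 23 of 27 lineages. For Mtf1 over all 27 lineages the mean absolute difference was 1.14 ± 0.74 among relatives and 1.17 ± 0.20 to unrelated cells. For Slc39a10 it was 1.08 ± 0.76 and 1.22 ± 0.24, and both gaps were within the spread.

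In L1210 cells the pair values of Mt1 and Mt2 moved when L1210_8 and L1210_15 were left out. L1210_8 has a retained sister but no cousin, and L1210_15 has a retained sister and is in 2 cousin pairs. Over all 38 sister pairs the correlation was -0.00 for Mt1 and -0.17 for Mt2, and without L1210_8 and L1210_15 it was 0.34 and 0.25 over 36 pairs. Over all 62 cousin pairs it was 0.15 for Mt1 and 0.44 for Mt2, and without those cells 0.36 and 0.45 over 60 pairs, against -0.025 for both over 2985 unrelated pairs. Also without them, for Slc39a10 the sister value was 0.32 and the cousin value -0.04, for Mtf1 -0.02 and 0.07, and for Slc30a1 -0.16 and 0.17. With 1 value per lineage, the mean difference among relatives, relative to that from unrelated cells, was -0.50% for Mt1 and 3.74% for Mt2, lower in 20 and 18 of 24 lineages. Without L1210_15 alone the values were -1.46% and 3.93%. Without L1210_8 as well they were -21.4% and -12.5%, lower in 17 and 15 of 23 lineages. The direction for Mt2 thus turned only once L1210_8 was left out too. Beside unrelated cells within 1 h in time since division, with L1210_8 and L1210_15 kept, the values were 20.3% for Mt1 and 25.4% for Mt2. They were lower in 18 and 16 of 24 lineages.

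**Figure D4:**
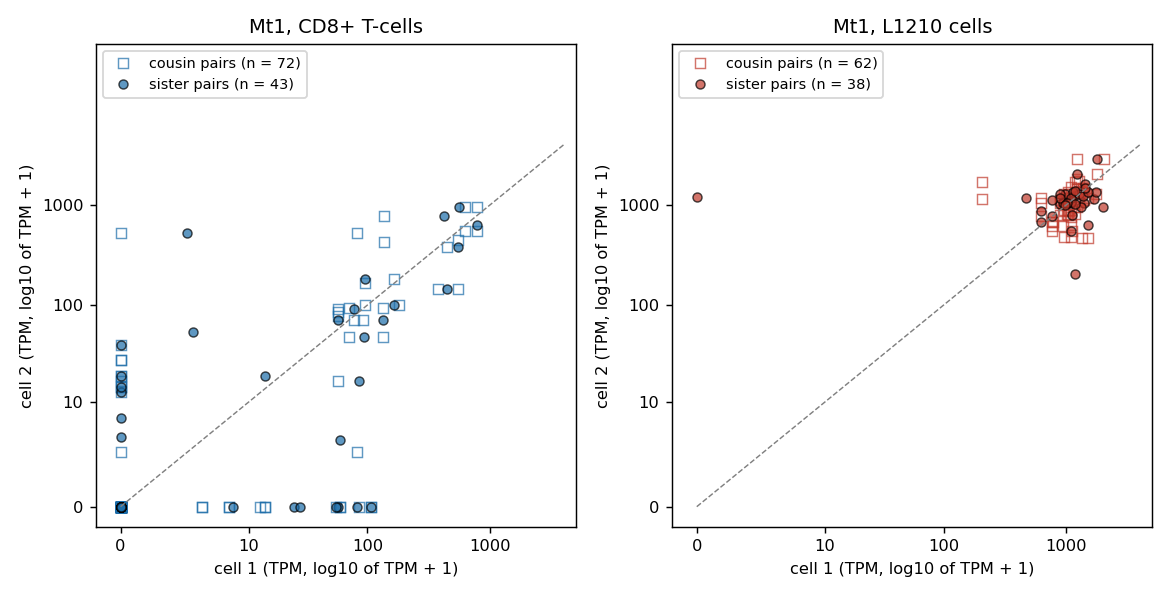
Mt1 in both cells of each sister pair (filled circles) and cousin pair (open squares), in TPM (axes: log10 of TPM + 1), for CD8+ T-cells (43 and 72 pairs) and L1210 cells (38 and 62 pairs); which cell is on which axis is arbitrary and the dashed line marks equal values. In CD8+ T-cells the strong pairs lie along the line and other pairs have 1 cell at 0, and in L1210 cells 1 sister pair has a cell at 0.

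Time since division was not used to choose the genes, and it was tested with limma on lineage means of ln(TPM + 1). None of the 5 genes passed the test, which does not show that their levels were constant. In CD8+ T-cells (31 lineages with a recorded time) the slope of Mt1 was -0.047 ± 0.145 per hour (SE, limma adjusted p = 0.915) and that of Mt2 -0.070 ± 0.110 (limma adjusted p = 0.827). Mtf1 had a slope of -0.101 ± 0.059 (limma adjusted p = 0.471) and Slc39a10 -0.023 ± 0.061 (limma adjusted p = 0.905). The test called 9 of 9997 genes there, or 0.09%.

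In L1210 cells (26 lineages) the slopes were -0.044 ± 0.033 per hour for Mt1, -0.027 ± 0.030 for Mt2, 0.028 ± 0.035 for Mtf1, 0.029 ± 0.028 for Slc30a1 and 0.019 ± 0.038 for Slc39a10 (SE, limma adjusted p between 0.853 and 0.930). Without L1210_8 and L1210_15 the slope of Mt1 was 0.00051 ± 0.0122 and that of Mt2 0.0149 ± 0.0159. The test called 0 of 10536 genes, or 0%, and 588 had an unadjusted limma p under 0.05. The difference between the types in slope was 0.129 ± 0.066 for Mtf1, higher in L1210 cells (57 lineages, SE, unadjusted limma p = 0.0563, adjusted p = 0.440). For Mt1, Mt2 and Slc39a10 that difference had limma adjusted p of 0.997, 0.910 and 0.848, beside 0.0109% of 9160 genes called.

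**Figure D5:**
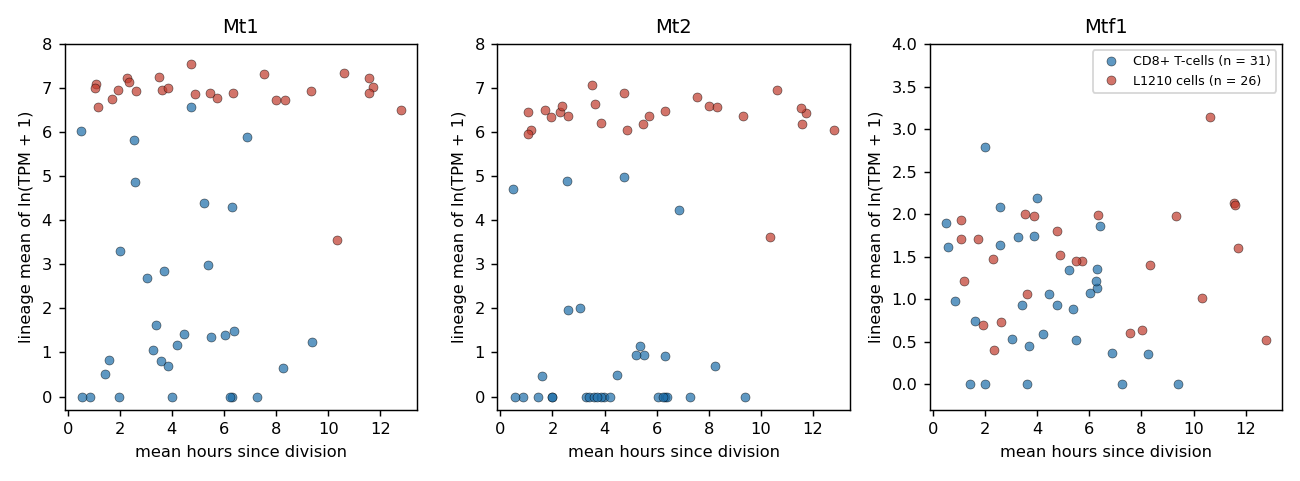
Lineage mean of ln(TPM + 1) of Mt1, Mt2 and Mtf1 against the mean hours since division, for 31 CD8+ lineages (blue) and 26 L1210 lineages (red), 1 point per lineage. CD8+ lineages with high values and with values at 0 are found at early and late times, and the low L1210 point for Mt1 and Mt2 near 10 h is the lineage of L1210_8.

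Of the other metallothioneins, Mt3 was above 0 in 10 of 97 CD8+ T-cells from 6 lineages (highest 65.2 TPM) and in 0 of 81 L1210 cells, and Mt4 was above 0 in 0 and 1. The correlation of Mt3 with Mt1 in CD8+ T-cells was 0.46 over 97 cells, and 0.30 over 86 without the lineages of CD8_25, CD8_83 and CD8_91.

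Other zinc transporters were present in both types. Of 9 further ZnT exporters, 5 passed the filter among CD8+ T-cells and 4 among L1210 cells, and of 13 further ZIP importers 10 passed in each. The strongest exporters were Slc30a6 and Slc30a5 in CD8+ T-cells (means of 17.2 and 14.8 TPM) and Slc30a5 and Slc30a9 in L1210 cells (68.3 and 20.5 TPM). Slc30a5 and Slc30a6 form a complex that loads zinc into the secretory pathway. The strongest importers were Slc39a7, which releases zinc from the endoplasmic reticulum, and Slc39a6, a close relative of Slc39a10. They had 51.2 and 26.9 TPM in CD8+ T-cells and 93.9 and 70.3 TPM in L1210 cells.

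None of these transporters was called in the time test or in the likeness test, a sign-flip permutation over lineages that called 202 of 9997 genes (2.02%) in CD8+ T-cells and 32 of 10536 (0.304%) in L1210 cells. Among relatives in CD8+ T-cells the difference relative to unrelated cells had a median of -14.1% over 5 ZnT exporters and -14.5% over 10 ZIP importers, beside -8.38% over all 9997 genes. In L1210 cells it was -5.98% and -13.4%, beside -9.49% over all genes. At an unadjusted p under 0.05, 1 ZnT and 1 ZIP gene passed in CD8+ T-cells by the sign-flip permutation, and 0 and 1 in L1210 cells.

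Of 8 copper handling genes 7 were tested in each type and none was called. The strongest were Cox17 and Atox1. Cox17, a copper chaperone of cytochrome oxidase, had 252 TPM in CD8+ T-cells and 227 TPM in L1210 cells, and Atox1, which hands copper to the Golgi pumps, had 142 and 113 TPM. Of 8 glucocorticoid-responsive genes, a class that shares an inducer with the metallothioneins, 7 and 6 were tested and none was called. Dusp1 and Tsc22d3 led in CD8+ T-cells (37.1 and 18.3 TPM) and Tsc22d3 and Sgk1 in L1210 cells (30.9 and 19.6 TPM).

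Of the oxidative stress response, 3 of 10 genes were more alike in related CD8+ T-cells and 0 of 9 in L1210 cells, beside 2.02% and 0.304% of all genes tested. Because this list was chosen with earlier results of these data known, its count and p-values are descriptive. The medians over the list were -12.9% and -10.7%, beside -8.38% and -9.49% over all genes. Gclm, the modifier subunit of the enzyme that starts glutathione synthesis, had a difference of -40.4% among relatives relative to unrelated cells, lower in 24 of 27 lineages (sign-flip permutation, adjusted p = 0.00731). Txnrd1, thioredoxin reductase, had -34.4%, lower in 24 of 27 (sign-flip permutation, adjusted p = 0.0151). Slc7a11, the cystine importer, had -24.3%, lower in 21 of 27 (sign-flip permutation, adjusted p = 0.04998). Gclm kept its call in 10 of 10 alternatives and Txnrd1 in 9, but Slc7a11 lost it in 8, where its adjusted p reached 0.324. With Mt1 the correlation over 97 cells was 0.11 for Gclm, -0.00 for Txnrd1 and -0.23 for Slc7a11. The 2 strongest genes of this list were Txnrd1 and Gclm in CD8+ T-cells (117 and 73.2 TPM), and Txnrd1 and Hmox1 in L1210 cells (125 and 60.4 TPM). No gene of any list passed the test of time since division, which called 0.09%, 0% and 0.0109% of all genes (limma, lowest adjusted p over the lists 0.124 in CD8+ T-cells, 0.843 in L1210 cells and 0.235 for the difference).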

How the data were processed

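Single-cell libraries of 106 CD8+ T-cells and 88 L1210 cells were prepared with Smart-Seq2. The deposited table holds TPM, which the authors estimated with RSEM 1.2.3 on mm10; TopHat2 is also named in the submitters' processing notes. TPM were used as deposited, as ln(TPM + 1). Doublets (4 and 2) and cells under 1000 detected genes (5 and 5) were left out, and genes were kept in a cell type if above 1 on that scale in over 10% of its cells. Lineages were joined through sister and cousin labels that both cells give, and cousin labels that were not returned were not used. The members and lists were chosen with earlier results of these data known. Likeness was tested over lineages by a 2-sided sign-flip permutation with 100000 resamples, and time since division by limma 3.58.1 in R 4.3.3 on lineage means. Both used Benjamini-Hochberg adjustment and a threshold of 0.05. P-values measure the spread between lineages, and lineages that share a mouse, culture or device run may not be independent. Named genes were the members, the 5 (Mt1, Mt2) or 3 genes of highest r with each member, list genes called, and the 2 of highest mean TPM per list. Abhd14a and Mfsd2a were named after its values were seen. Both tests were tested on simulated data, made by shuffling these data and adding large effects to some genes. That does not measure their power for smaller effects.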

Additional observations from a re-analysis of the deposited data

How the results depend on the processing

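TPM keep no depth, so detection limits most statements on the sensor and transporters, and cells at 0 cannot be told apart from cells below detection. No paired analysis was possible because the numbers shared by the 2 cell types only count cells. In CD8+ T-cells the 202 genes called more alike became 428 without a gene filter, 68 against unrelated cells within 1 h, 880 by the Mann-Whitney U-test on pairs, 54 by limma and 56 without the lineages of CD8_25, CD8_83 and CD8_91. In L1210 cells the 32 genes became 52 and 123 at pseudocounts of 0.1 and 10 TPM, 590 without a filter, 141 with at least 4000 detected genes, 0 within 1 h, 544 by the Mann-Whitney U-test, 2 by limma and 67 without L1210_8 and L1210_15. The time test in CD8+ T-cells called 9 genes, and 5 at a pseudocount of 0.1 TPM, 3 without a filter, 25 with at least 4000 detected genes, 23 with single cells blocked by lineage, 17 with detected genes as a covariate and 1 without the 3 lineages. In L1210 cells the covariate gave 1. The difference between types called 1 gene, and 2 at a pseudocount of 10 TPM, 3 with at least 4000 detected genes, 3 with single cells and 2 with the covariate. Causes were not tested. The time alternatives gave 98 slopes, each of 1 gene in 1 setting and comparison, with Slc30a1 counted only in L1210 cells. None was called (limma adjusted p 0.366 to 0.999). Of these slopes 91 kept their direction. Those that reversed were Mt1 0.0185 and Slc39a10 0.00877 in CD8+ T-cells with the covariate, Mt2 0.0139 in L1210 cells with at least 4000 detected genes, and Mt1 0.00051 and Mt2 0.0149 without L1210_8 and L1210_15. The Mt1 difference reversed to -0.0344 with single cells and to -0.0389 with the covariate. The r of Mt1 and Mt2 in CD8+ T-cells moved by more than 0.1 over deviations from lineage means (0.38) and without the 3 lineages (0.55). In L1210 cells it was 0.77 at a pseudocount of 10 TPM, 0.55 as Spearman's rho, 0.37 in cells with either gene above 0, 0.56 with at least 4000 detected genes and 0.55 without L1210_8 and L1210_15. Without those 2 cells Spearman's rho was 0.59, r over lineage means 0.65 and over deviations 0.46. Mean levels moved by less than 1 SD over lineages in 33 of 35 alternatives. After rescaling without Rn45s the L1210 means were 1419 TPM for Mt1 and 867 TPM for Mt2. Leaving out both L1210_8 and L1210_15, or the 3 CD8+ lineages for their high Mt1, was chosen after seeing the data.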

Other observations

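Of the 16 libraries left out of the comparisons, 5 had Mt1 above 0. The L1210 libraries L1210_41 and L1210_83, with 689 and 801 detected genes, had 4879.8 and 2619 TPM of Mt1 and 2369 and 2536 TPM of Mt2. The labelled doublets L1210_48 and L1210_50 had 387 and 777 TPM of Mt1 and 1019 and 143 TPM of Mt2, and the doublet CD8_63 had 44.6 TPM of Mt1.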
